A study of Mus musculus with 15 samples.

Results

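mmu-miR-34b-5p and mmu-miR-34c-5p, written without the species prefix below, are microRNAs (miRNAs) made from neighbouring hairpins of one primary transcript. They were chosen by name: every spot annotated to either miRNA on 15 single-colour Agilent mouse miRNA arrays was used, which gave 2 of the 1122 mouse miRNAs on the array and 2 of the 306 that were tested. The study followed mouse epiblast stem cells (EpiSC), pluripotent cells of the post-implantation epiblast, as they differentiated over 14 days; the line came from mice with a GFP reporter of Pitx3, a gene of midbrain dopaminergic neurons. Each of 5 groups had 3 arrays. Treated cells at day 9 and at day 14 had been given the morphogens SHH and FGF8 from day 5 to induce a dopaminergic fate; control cells at day 9 and at day 14 had been grown without them; and day 5 cells were taken before any morphogen. All groups carry the reporter, and no sorting for it is stated, so each array measured RNA of a whole culture, in which fewer cells of a type and less RNA per cell cannot be told apart. The labels do not say whether replicates were separate cultures, so p-values measure the spread between these samples, which may be technical.

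A mature miRNA guides an Argonaute protein to messenger RNAs that pair with its seed, the short stretch near its start, and so lowers their stability and translation. The miR-34 genes are known as direct transcriptional targets of p53, the tumour suppressor that halts the cell cycle or triggers apoptosis; miR-34a is encoded at a separate locus, and the miR-449 family shares the seed and acts with miR-34b and miR-34c in multiciliated cells. The study is known for its work on this pair in dopaminergic differentiation, so the changes below are not independent evidence of a choice made without these arrays.

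The sequences below show what ties the family together. Of the 11 miRNAs of the miR-34 and miR-449 families on the array, 9 had a mature sequence in the RefSeq table (build GRCm38.p6); miR-34c-5p and miR-449b did not. Capitals mark the seed, bases 2 to 8 from the start of the miRNA. The first 4 sequences share one seed, and they were the only 4 of 1679 mature mouse sequences in the table with it; the last 2, from the opposite arms of the pair's hairpins, share another seed that no other entry held.
miR-34b-5p: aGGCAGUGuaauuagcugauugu
miR-34a-5p: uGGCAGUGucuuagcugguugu
miR-449a-5p: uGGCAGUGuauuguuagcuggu
miR-449c-5p: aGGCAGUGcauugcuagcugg
miR-34b-3p: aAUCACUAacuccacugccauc
miR-34c-3p: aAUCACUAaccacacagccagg

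miR-34b-5p lies at chr9:51103610-51103632 and miR-34b-3p at chr9:51103574-51103595, both on the minus strand of GRCm38.p6. The hairpin they are cut from, Mir34b, spans chr9:51103562-51103645 on the same strand, 84 bases, shown here with the 5p arm first and then the 3p arm in capitals.
Mir34b: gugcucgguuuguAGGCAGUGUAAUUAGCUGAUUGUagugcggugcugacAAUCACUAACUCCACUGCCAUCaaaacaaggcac
The Mir34c hairpin, at chr9:51103034-51103110 on the minus strand, is 451 bases away. In the same annotation both hairpins lie within the spans of Hoatz, a gene of cilia and flagella that is also on the minus strand, and of Btg4, a gene of maternal mRNA decay in the egg on the opposite strand. miR-34b-3p and miR-34c-3p are identical at 17 of 22 positions and differ at 5, by U11C, C12A, U16A, U21G and C22G (the miR-34b-3p base first, positions counted from the start of the miRNA). How far the probes tell such related miRNAs apart was not tested, since probe sequences were not used here.

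The arrays lay on 2 slides. All control arrays were on slide 2 together with treated day 14 replicate 3, and the remaining 8 arrays (day 5, treated day 9, and treated day 14 replicates 1 and 2) were on slide 1. Between 238 and 333 miRNAs were above background per array, no spot of a miRNA was saturated, and the number of arrays limits the precision. Below, a level is the background-subtracted signal of a miRNA's brighter probe, divided by the array's 75th percentile and put on the log2 scale, so that 0 is the 75th percentile of the 353 probes above background on every array; the 75th percentile itself was between 149 and 337 units of intensity. The floor of the scale was -4.27.

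Both miRNAs were above background on 15 of 15 arrays and were higher in treated than in control cells at both days. Both were highest in treated day 9 cells and lowest in control day 14 cells. On the log2 scale, miR-34b-5p was at -0.67, -0.74 and -0.64 in treated day 9 cells, against -2.70, -2.45 and -2.55 in control day 9 cells. It was at -1.66, -1.73 and -1.97 in treated day 14 cells, against -3.82, -3.68 and -3.56 in control day 14 cells. In day 5 cells it was at -1.14, -1.05 and -1.50. The arrays of each group thus formed a band of their own, with all treated arrays above all control arrays and the day 5 arrays between those of treated day 9 and treated day 14.

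miR-34c-5p followed the same course. It was at -0.77, -0.75 and -0.59 in treated day 9 cells, against -2.67, -2.55 and -2.59 in control day 9 cells. It was at -1.67, -1.96 and -1.88 in treated day 14 cells, against -3.77, -3.54 and -3.86 in control day 14 cells. Its day 5 arrays, at -1.17, -1.17 and -1.46, again lay below those of treated day 9 and above those of treated day 14. The order of the groups was the same for both miRNAs: treated day 9, day 5, treated day 14, control day 9 and control day 14. No group overlapped its neighbour in that order; the narrowest gap, between the lowest day 5 array and the highest treated day 14 array, was 0.17 for miR-34b-5p and 0.20 for miR-34c-5p.

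**Figure D1:**
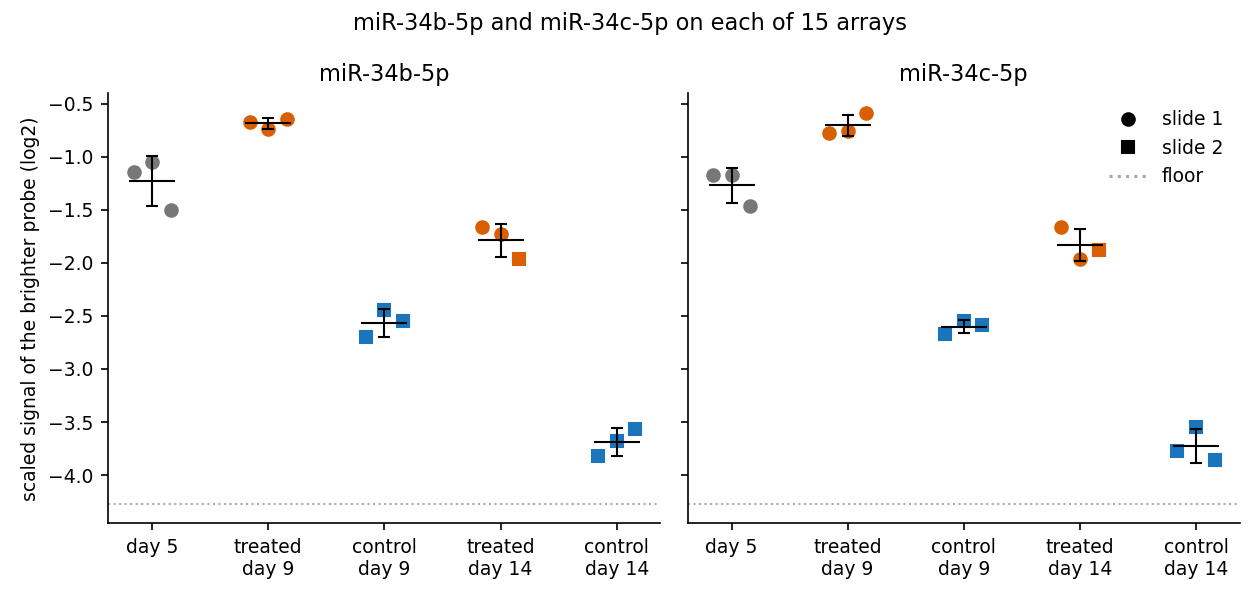
Scaled signal (log2) of the brighter probe of miR-34b-5p (left) and miR-34c-5p (right) on each of 15 arrays, by group; circles are slide 1, squares slide 2, the bar with caps is the mean ± SD (n = 3), and the dotted line is the floor at -4.27. In both panels the groups do not overlap, with treated day 9 arrays at the top and control day 14 arrays nearest the floor.

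The comparison of treated with control cells asks what SHH and FGF8 did to the pair at a fixed day. At day 9, miR-34b-5p averaged -0.69 ± 0.05 in treated cells and -2.57 ± 0.13 in control cells (SD, n = 3 each), a difference of 1.88 on the log2 scale (SE 0.12, 3.69-fold, limma adjusted p = 1.62e-08). miR-34c-5p averaged -0.70 ± 0.10 in treated cells and -2.60 ± 0.06 in control cells (SD, n = 3 each), a difference of 1.90 (SE 0.11, 3.73-fold, limma adjusted p = 5.24e-09). Both passed the test, as did 40.5% of the 306 tested miRNAs in this direction, and in both the treated arrays lay wholly above the control arrays, as in 51.3% of the tested miRNAs. In size the changes ranked 12 and 11 among the increases, against a median of 0.25 over all tested miRNAs.

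At day 14 the pair was lower in both arms and the difference was of like size. miR-34b-5p averaged -1.79 ± 0.16 in treated cells and -3.69 ± 0.13 in control cells (SD, n = 3 each), a difference of 1.90 (SE 0.12, 3.74-fold, limma adjusted p = 2.22e-08). miR-34c-5p averaged -1.83 ± 0.15 in treated cells and -3.72 ± 0.16 in control cells (SD, n = 3 each), a difference of 1.89 (SE 0.11, 3.71-fold, limma adjusted p = 8.52e-09). These ranked 2 and 3 in size among the increases, with a median of 0.22 over all tested miRNAs. Of the 306, 39.2% passed the test in this direction, and 41.2% had all treated arrays above all control arrays.

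Every day 9 treated array was on slide 1 and every day 9 control array on slide 2, so at day 9 no value within a slide can be had. With slide as a fixed block, which rests on treated day 14 cells being on both slides, the day 9 difference was 1.61 for miR-34b-5p (SE 0.20, limma adjusted p = 0.000105) and 1.83 for miR-34c-5p (SE 0.20, limma adjusted p = 3.14e-05). Within slide 2, the single treated day 14 array exceeded the mean of the 3 control day 14 arrays by 1.72 for miR-34b-5p and 1.85 for miR-34c-5p. With normexp background correction both differences were smaller, at 1.08 and 1.09 at day 9 and 0.70 and 0.69 at day 14, still past the threshold, and a floor 4 times higher reduced those at day 14 to 0.48 and 0.44.

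Whether the treatment effect changed between the days was tested as an interaction. It was 0.02 for miR-34b-5p (95% interval -0.35 to 0.38, limma adjusted p = 0.948) and -0.01 for miR-34c-5p (95% interval -0.34 to 0.32, limma adjusted p = 0.974). Neither passed, whereas 32.7% of the 306 miRNAs did in one direction or the other. A change of the effect within those intervals could not be told from none. With the floor 4 times higher, which lifts the control day 9 and control day 14 arrays to one value, the interaction was -1.10 and -1.13 and passed.

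The time courses set each arm against the cells it started from. By day 9 the arms had moved in opposite directions: relative to day 5, treated day 9 cells were higher by 0.54 in miR-34b-5p (SE 0.12, limma adjusted p = 0.00132) and by 0.56 in miR-34c-5p (SE 0.11, limma adjusted p = 0.000435), while miR-34b-5p in control day 9 cells fell by 1.34 (SE 0.12, limma adjusted p = 3.57e-07) and miR-34c-5p fell by 1.33 (SE 0.11, limma adjusted p = 1.33e-07). Of the 306 miRNAs, 37.6% rose in treated day 9 cells against day 5 and 39.5% had all treated day 9 arrays above all day 5 arrays; 35.0% fell in control day 9 cells against day 5 and 34.3% had all control day 9 arrays below all day 5 arrays. The rise in treated cells was within one slide, whereas control day 9 and day 5 arrays were on different slides, and with slide as a fixed block the decreases in control day 9 cells were -1.07 and -1.27. The size of the rise depended on the scaling and the background: it was 0.32 and 0.34 with the 75th percentile over all mouse probes, 0.35 and 0.35 with quantile normalization and 0.31 and 0.33 with normexp, each past the threshold, and 0.81 without scaling for miR-34b-5p, which missed it (limma adjusted p = 0.0552).

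Between day 9 and day 14 both miRNAs fell in both arms, in the main setting by nearly the same amount. In treated day 14 cells, against treated day 9 cells, miR-34b-5p fell, with a difference of -1.10 (SE 0.12, limma adjusted p = 2.13e-06) and miR-34c-5p fell by 1.13 (SE 0.11, limma adjusted p = 6.69e-07). In control day 14 cells, against control day 9 cells, miR-34b-5p fell by 1.12 (SE 0.12, limma adjusted p = 2.08e-06) and miR-34c-5p fell by 1.12 (SE 0.11, limma adjusted p = 7.73e-07). In the treated arm 30.7% of the 306 miRNAs fell and 35.9% had all day 14 arrays below all day 9 arrays; in the control arm the shares were 22.9% and 26.5%. Within slide 1, 2 treated day 14 arrays lay below the treated day 9 mean by a difference of -1.01 for miR-34b-5p and -1.11 for miR-34c-5p. The control comparison lay wholly within slide 2. With normexp it was -0.39 for both miRNAs, while the treated difference of miR-34b-5p was -0.77. The likeness of the falls in the arms thus depends on the processing. With the floor 4 times higher, where all those control arrays lie at the floor, the control difference was 0 and the call was lost (limma adjusted p = 1).

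Against day 5, the pair ended lower in both arms. In treated day 14 cells miR-34b-5p fell by 0.56 (SE 0.12, limma adjusted p = 0.000815) and miR-34c-5p fell by 0.57 (SE 0.11, limma adjusted p = 0.000314); 24.8% of the 306 miRNAs fell in this comparison and 23.2% had all treated day 14 arrays below all day 5 arrays. Without scaling between arrays these differences were 0.014 and 0.0062, so the fall below day 5 depends on the scaling, and with quantile normalization they were -0.99 for both. In control day 14 cells miR-34b-5p fell by 2.46 (SE 0.12, 5.50-fold, limma adjusted p = 2.01e-10) and miR-34c-5p fell by 2.46 (SE 0.11, 5.49-fold, limma adjusted p = 6.79e-11), which ranked 10 and 11 among the decreases. These were smaller with normexp, at -1.16 and -1.15, and with the floor 4 times higher, at -1.04 and -1.0, still past the threshold. In that comparison 34.3% of the 306 miRNAs fell and 32.0% had all control day 14 arrays below all day 5 arrays. Control day 14 and day 5 arrays were on different slides, so no value within a slide can be had. The comparisons with day 5 share the same 3 arrays, so they are not independent of each other.

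**Figure D2:**
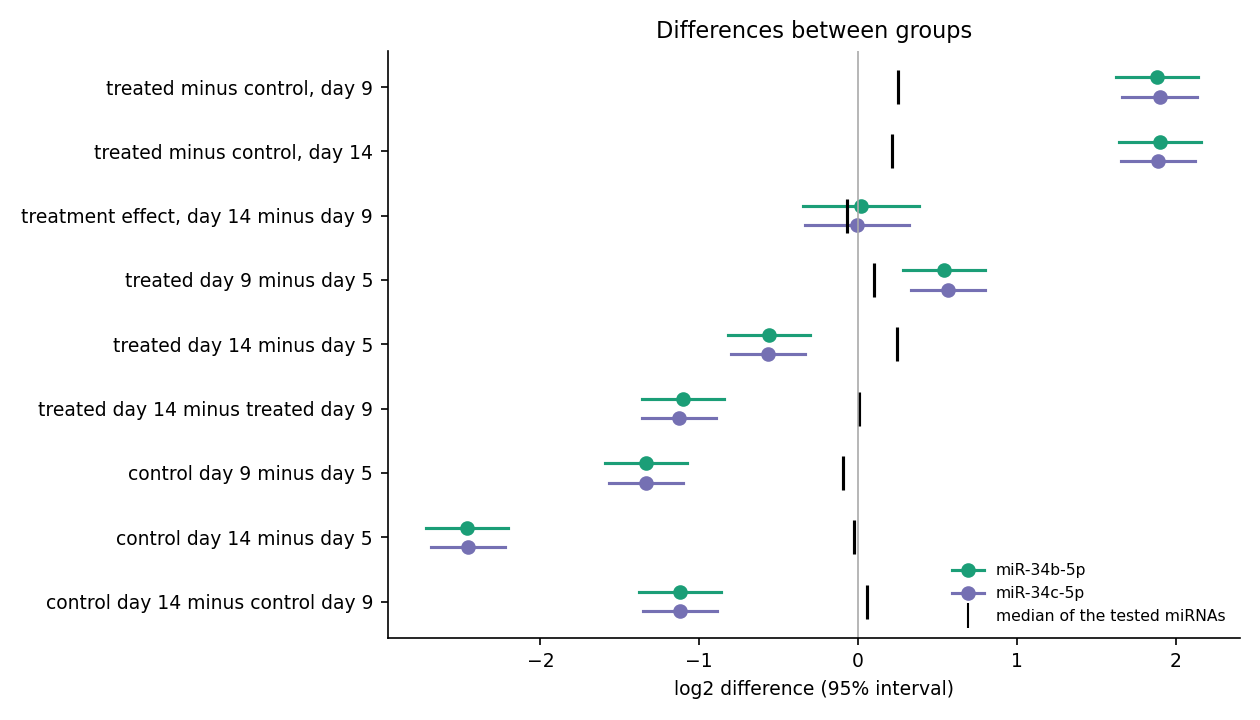
Differences between groups on the log2 scale for miR-34b-5p (green) and miR-34c-5p (purple) with 95% intervals from the limma fit, beside the median of the 306 tested miRNAs (black tick). Both miRNAs have nearly the same difference in each of the 9 comparisons, 1.88 and 1.90 for treated minus control at day 9 and near 0 for the change of the treatment effect.

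The changes of the 2 miRNAs lay close together in every comparison. How far their probes tell the 2 apart was not tested, so they need not be separate readings. Per array, the log2 level of miR-34c-5p minus that of miR-34b-5p varied between -0.30 and 0.14 over the 15 arrays (SD 0.12), while each miRNA alone had a range of 3.18 (miR-34b-5p) or 3.27 (miR-34c-5p). On the same scale the treatment effect of miR-34c-5p minus that of miR-34b-5p was 0.02 at day 9 (exact permutation test, two-sided, p = 0.7) and -0.01 at day 14 (p = 1 by the same exact test). At day 9 the per-array difference was -0.10, -0.01 and 0.06 in treated cells, against 0.04, -0.10 and -0.04 in control cells. At day 14 it was -0.0009, -0.23 and 0.09 in treated cells, against 0.05, 0.14 and -0.30 in control cells, where the signals were weakest. Over the 8 comparisons of groups the difference between the 2 changes was between -0.03 and 0.02, and every exact p was 1 after Benjamini-Hochberg adjustment. With 3 arrays against 3 the smallest p this test can give is 0.1, so it could not have passed 0.05.

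Each miRNA was read by 2 probes, with 20 spots per probe and array, or 1200 spots of the pair in all, of which 53 were outliers by the scanner software's flags and 1089 were well above background. The brighter probes, A_54_P2446 for miR-34b-5p and A_54_P1248 for miR-34c-5p, were above background on all 15 arrays. The dimmer probes, A_54_P2445 for miR-34b-5p and A_54_P1247 for miR-34c-5p, were above background on 12 arrays and not on the 3 control day 14 arrays. The share of the pair's spots well above background was 100% in treated day 9, treated day 14 and day 5 cells, 96.7% in control day 9 cells and 57.1% in control day 14 cells. The median coefficient of variation among the spots of a probe was 9.03% and 10.2% for the brighter and dimmer probes of miR-34b-5p, and 7.18% and 12.9% for those of miR-34c-5p.

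The probes of a miRNA gave like changes wherever both were above background. On those 12 arrays the brighter probe exceeded the dimmer by 0.73 to 1.02 on the log2 scale for miR-34b-5p (SD 0.10) and by 0.70 to 0.99 for miR-34c-5p (SD 0.08). In a limma fit over 590 probes, the day 9 difference between treated and control cells was 1.88 and 1.99 for the brighter and dimmer probes of miR-34b-5p and 1.90 and 2.06 for those of miR-34c-5p. All 4 probes passed, in the same direction, in each of the 8 comparisons of groups, on the same arrays. The share of the 590 probes that passed is not given here. Of the 306 miRNAs, 22.9% to 40.5% passed in the pair's direction, depending on the comparison. In the comparisons with control day 14 cells, the dimmer probes stood at the floor in that group. The rise in treated day 9 cells against day 5 was between 0.54 and 0.58 over the 4 probes.

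Where control day 14 cells entered, the dimmer probes had only a bound there. In treated day 14 cells the dimmer probe of miR-34b-5p was at least 2.90-fold higher than in control day 14 cells (limma adjusted p = 4.41e-06, from the fit with those arrays at the common floor), and that of miR-34c-5p at least 3.02-fold higher (limma adjusted p = 1.01e-07). With the floor standing in for control day 14 cells, their interaction of treatment and day was -0.40 (limma adjusted p = 0.23) and -0.42 (limma adjusted p = 0.0705). The brighter probes, measured in every group, had 0.02 and -0.01.

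**Figure D3:**
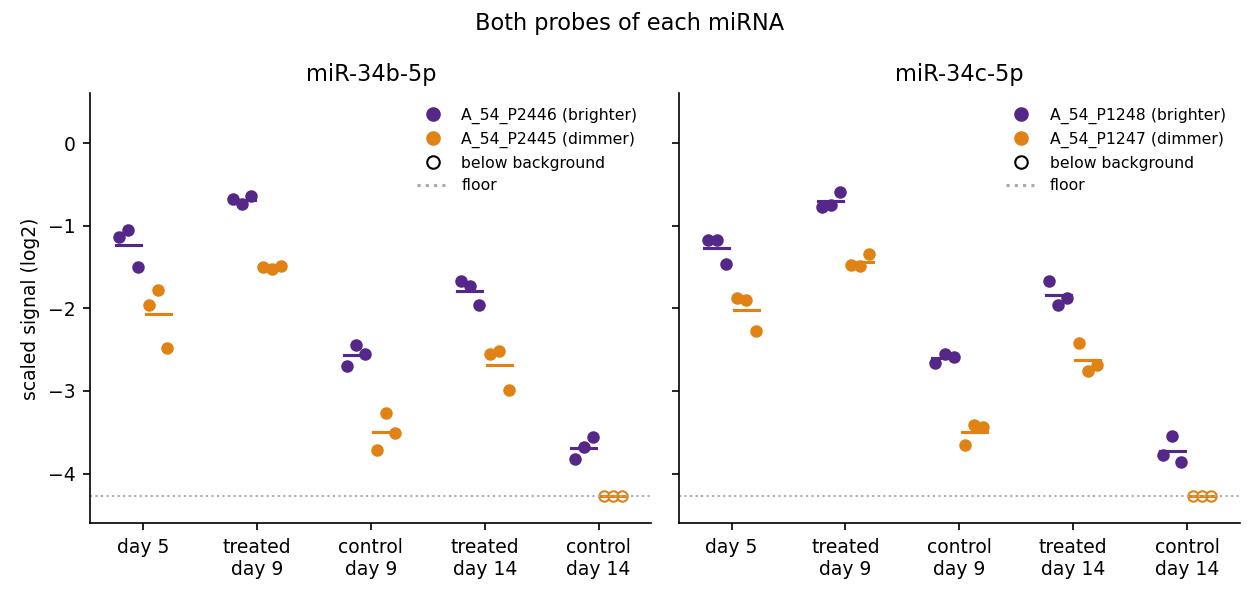
Scaled signal (log2) of the brighter (purple) and dimmer (orange) probe of miR-34b-5p (left) and miR-34c-5p (right) on each array, by group; short lines are group means, open circles are arrays not above background, and the dotted line is the floor. The probes run in parallel in 4 groups, while the dimmer probes lie at the floor of -4.27 on the 3 control day 14 arrays.

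Of the rest of the family, 1 miRNA was above background on any array. miR-34b-3p, the opposite arm of the miR-34b hairpin, was above background on 2 arrays, treated day 9 replicates 2 and 3. Its brighter probe (A_54_P2451), in units of intensity not scaled between arrays, read 13.3, 18.4 and 18.0 in treated day 9 cells, against 2.54, 3.88 and 4.79 in control day 9 cells. It read 10.9, 7.95 and 4.66 in treated day 14 cells, against 2.93, 1.94 and 2.69 in control day 14 cells. In day 5 cells it read 7.18, 12.2 and 6.40. The treated day 9 arrays read highest, and the treated day 14 arrays overlapped those of control day 9; outside treated day 9 no array was above background, so no order is read from those values. The treated day 9 mean was 1.24-fold above the lowest signal above background on the control day 9 arrays, or the floor where higher. Against the same limit on the day 5 arrays it was 1.02-fold. With 2 of 3 treated day 9 arrays above background, that mean includes an array that was not, so these folds are not lower bounds. miR-34b-3p was not tested.

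miR-34c-3p, both arms of miR-34a, and miR-449a, miR-449b and miR-449c were above background on 0 of 15 arrays. miR-34a-5p, which shares the seed and is the family member best known as a p53 target, had at most 3.33% of its spots well above background in any group. Among the tested miRNAs with a sequence in the table, only miR-34b-5p had its seed. miR-34c-5p, also tested, had no sequence there, so its seed was not compared. The 3 markers of multiciliated, ependymal or choroid plexus cells, miR-449a-5p, miR-449b and miR-449c-5p, were thus below background in every group.

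**Figure D4:**
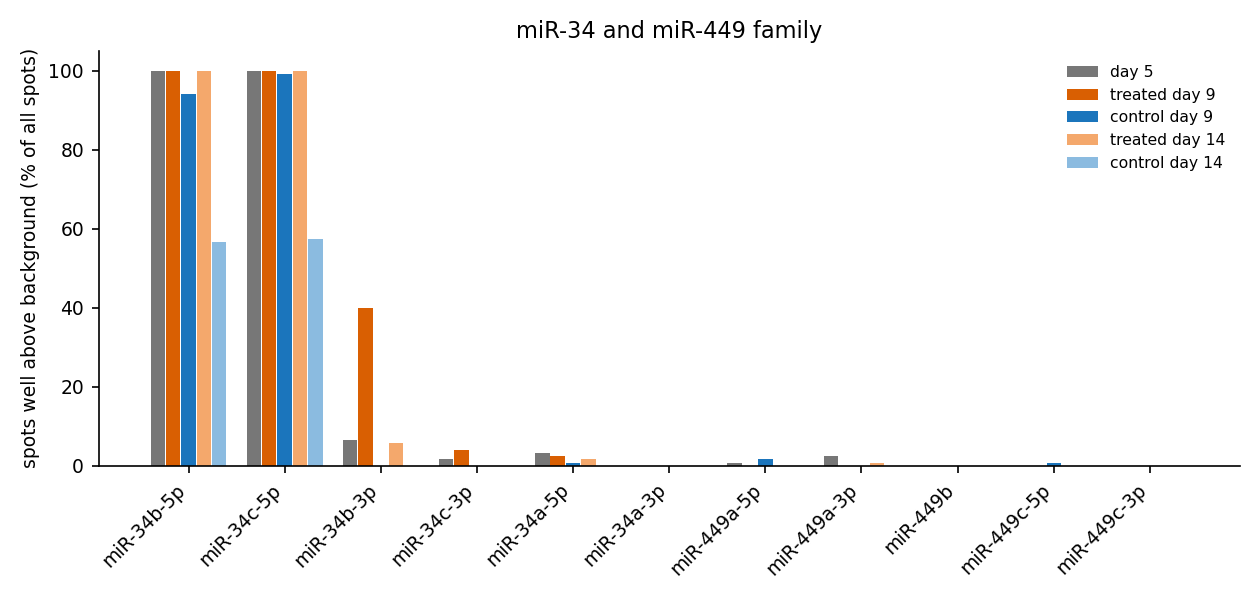
Share of spots well above background (percent of all spots of a miRNA's probes over the 3 arrays of a group) for each miR-34 and miR-449 miRNA, by group. miR-34b-5p and miR-34c-5p reach 100% in 3 groups, miR-34b-3p reaches 40.0% in treated day 9 cells, and the others reach at most 4.17%.

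A list of 17 miRNAs tied to p53 in the literature was set beside the pair; 16 were on the array (miR-145a-5p under its older name miR-145-5p), and 6 were tested. Besides the pair these were miR-103-3p and miR-107-3p, close relatives that target metabolic and cell-cycle genes, and miR-15a-5p and miR-16-5p, which act on cell-cycle and survival genes such as Bcl2. In treated against control cells, 1 of these 4 rose at day 9, miR-16-5p, by 0.40 (SE 0.07, limma adjusted p = 0.000276), and their median was -0.06. At day 14, 1 of 4 rose, miR-16-5p again, by 0.24 (SE 0.07, limma adjusted p = 0.00931), and miR-107-3p fell by 0.24 (SE 0.08, limma adjusted p = 0.0293), with a median of -0.07. Over all tested miRNAs, 40.5% and 39.2% rose at those days, with medians of 0.25 and 0.22, and 45 of the 306 fell at day 14.

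Across time the 4 had smaller changes than the pair. All 4 rose in treated day 9 cells against day 5, by 0.20 to 0.35, and all 4 fell in treated day 14 cells against treated day 9 cells, with differences of -0.25 to -0.72; the shares over all tested miRNAs were 37.6% and 30.7%. In treated day 14 cells against day 5, where the pair fell, 1 of 4 fell (24.8% over all tested miRNAs), miR-16-5p, with a difference of -0.52, and miR-107-3p was at 0.10 (limma adjusted p = 0.313). In control day 14 cells against control day 9 cells 3 of 4 fell, and 22.9% did over all tested miRNAs. In control day 9 cells against day 5, where the pair fell, 3 of the 4 rose, miR-103-3p by 0.35, miR-107-3p by 0.50 and miR-15a-5p by 0.31, as did 23.9% of all tested miRNAs. The other, miR-16-5p, fell there, with a difference of -0.20 (limma adjusted p = 0.0251). miR-34a-5p, miR-143-3p, miR-145-5p, miR-192-5p, miR-194-5p, miR-215-5p, miR-200c-3p and miR-141-3p were above background on 0 arrays.

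The 6 miRNAs outside the family with the pattern nearest to the pair were found by the root mean square (RMS) difference over the 15 arrays between centred log2 profiles. They are given as a description with no test, since the arrays chose them. miR-212-3p, a neuronal miRNA induced through CREB, was nearest, with an RMS difference of 0.43 and r = 0.92 over the 15 arrays. Then came miR-466b-3p (RMS 0.48, r = 0.95), miR-219-5p, known for its part in oligodendrocyte differentiation (RMS 0.50, r = 0.97), miR-130b-5p (RMS 0.52, r = 0.90), miR-5097 (RMS 0.55, r = 0.85) and miR-3968 (RMS 0.56, r = 0.89). The median over the 306 tested miRNAs was 1.05. Either member of the pair differed from their common profile by 0.057. That profile was made from the pair itself, so this value is the same for both members and lowered by construction. It cannot be compared with the values of the other miRNAs.

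Each of the 6 was nearer to the pair on slide 1, with RMS differences of 0.13 to 0.36 between profiles centred within the slide, than on slide 2, with 0.26 to 0.70. The pair itself varied more on slide 2: miR-34b-5p lay between -3.82 and -1.97 there and between -1.73 and -0.64 on slide 1. A wider range enlarges the RMS difference of any profile that does not follow it, so the contrast between slides is not read as a trait of the 6. miR-212-3p was higher in treated than in control cells by 2.42 at day 9 and by 1.23 at day 14, and in control cells it averaged -3.35 ± 0.23 at day 14 and -3.36 ± 0.17 at day 9 (SD, n = 3 each), where the pair fell. miR-5097 had 2.01 and 0.52 at the same days and miR-3968 had 1.39 and 0.49. miR-219-5p had 1.34 and 0.78, and miR-130b-5p had 0.93 and 0.70. miR-466b-3p was the one of the 6 with the larger difference at day 14, 0.73 at day 9 and 1.21 at day 14, although in control day 14 cells it was above background on 1 of 3 arrays. All these profiles share the arrays, the slides and the scaling.

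**Figure D5:**
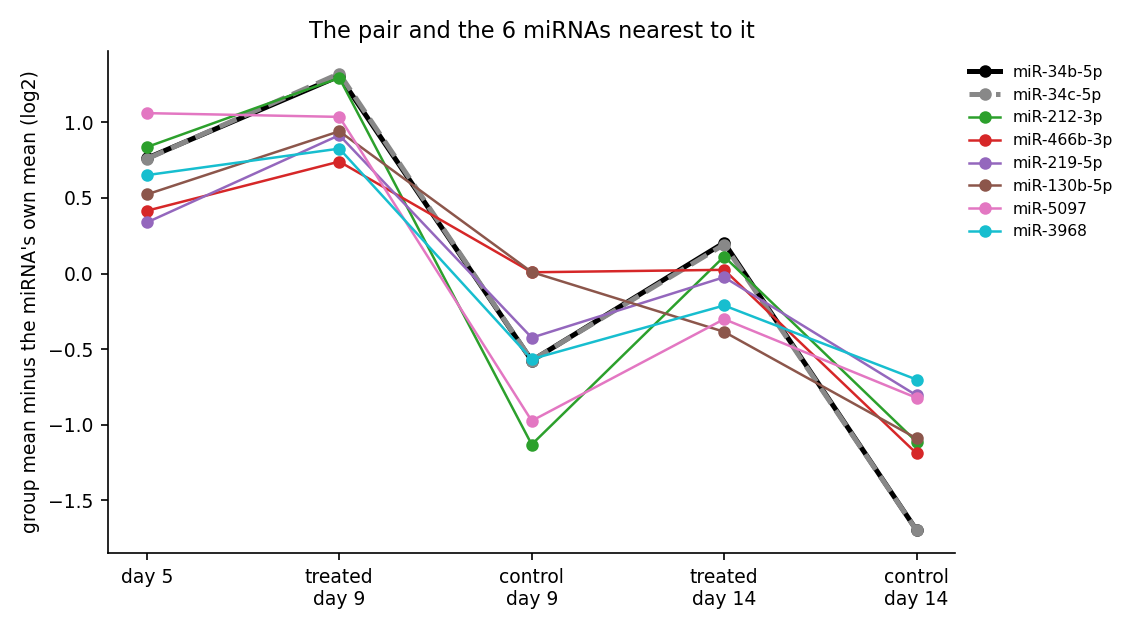
Group means (log2, each miRNA minus its own mean over the 5 groups) of miR-34b-5p, miR-34c-5p and the 6 miRNAs with the nearest profiles. The lines of the pair lie on each other, and in control day 14 cells both fall below all 6 others. There miR-466b-3p and miR-130b-5p averaged -4.24 and -4.18 before centring, near the floor of -4.27, which limits how far they could fall.

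Levels of marker miRNAs also differed between the groups, and most sets did not follow the order of the pair. The summed scaled signal (linear) of the markers above background among 7 neuronal miRNAs, which include miR-124-3p and miR-9-5p, was 7.68 to 8.0 in treated day 9 cells against 13.7 to 15.3 in control day 9 cells, 15.2 to 17.8 in treated day 14 cells against 24.4 to 28.9 in control day 14 cells, and 3.92 to 4.22 at day 5. For 2 glial miRNAs it was 4.73 to 5.01 in treated day 9 cells against 1.73 to 2.11 in control day 9 cells, 2.25 to 2.94 in treated day 14 cells against 1.56 to 1.62 in control day 14 cells, and 2.95 to 3.58 at day 5. Nearly all of that sum was miR-219-5p, one of the 6 nearest profiles above. The other glial marker, miR-338-3p, was at most 0.149 on any array and did not follow the pair (r = -0.20 over the 15 arrays), with 0.0951 to 0.109 in treated day 14 cells against 0.118 to 0.149 in control day 14 cells. The 5 miR-302 cluster miRNAs of primed pluripotent cells summed to 2.02 to 3.00 at day 5 and to at most 0.55 in any later group. For 5 miRNAs of naive pluripotent cells the sum was 0.30 to 0.47 at day 5 and at most 0.13 in any later group. Of 4 endodermal miRNAs only miR-375-3p, and of 4 mesenchymal ones only miR-199a-3p, was above background, each on the 6 treated arrays and on 0 others, with sums of 0.38 to 0.72 and 0.07 to 0.09. The markers of striated muscle and of endothelium and blood were above background on 0 arrays, as was miR-133b-3p, a miRNA of midbrain dopaminergic neurons, in treated cells too. The part of these markers' cell types in the levels of the pair was not tested.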

How the data were processed

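Array spots were read out as intensity (Cy3, 1 colour) by Feature Extraction 11.0.1.1, per the file headers, and the deposited scanner tables are not normalized across arrays. Columns of another kind (other) are flags, per the file headers, that mark a spot as above background, as saturated or as an outlier. The authors also deposited a value table whose intensity values match linear probe averages after background subtraction, without normalization across arrays. Its column medians were 0.10, 0.22 and 0.05 (day 5), 0.44, 0.55 and 0.38 (treated day 9), 0.70, 0.70 and 0.25 (treated day 14), -0.02, 0.10 and 0.21 (control day 9), and 0.22, 0.26 and 0.43 (control day 14). Treated day 14 replicate 2 there repeats the column of replicate 1 (86.0% of probes equal within 0.1%), and both counted as a single sample in that alternative. limma 3.20.9 is named in the submitters' processing notes, with no role stated.

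Here, outlier spots were dropped and the other spots of a probe averaged. Each array was scaled to its 75th percentile over the 353 mouse probes detected on all 15 arrays, values under a common floor of -4.27 were set to it, and log2 was taken. A probe counted as above background where at least 50% of its spots were flagged so. The brightest probe stood for a miRNA, and the 306 miRNAs above background on every array of at least 1 group were tested. One limma 3.58.1 model held all 5 groups (R 4.3.3; packages jsonlite 2.0.0 and data.table at version 1.17.8; residual degrees of freedom 10, prior 3.03), with two-sided moderated tests, Benjamini-Hochberg adjustment over the 306 and calls below 0.05. "At least" folds are set against the lowest signal above background on each array, or the common floor where that was higher. The fit was tested on simulated data. The rule for naming took the pair and its probes, the family, tested members of the p53 list and the 6 nearest profiles; members and lists were chosen with earlier results of these data known. Alternatives varied the scaling, background, floor, probe summary, filter, value table, blocks and left-out replicates; normexp (offset 50) used median spot signals in place of means. Plots came from Python 3.11.15 (matplotlib 3.10.9, numpy 2.4.6, pandas 2.3.3).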

Additional observations from a re-analysis of the deposited data

How the results depend on the processing

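The treatment effects at day 9 and day 14, the changes from day 9 to day 14 in treated cells, and both control comparisons with day 5 kept their direction and passed the threshold for both miRNAs under all 17 alternatives and without each of the 15 arrays in turn. The rise in treated day 9 cells missed the threshold without scaling for miR-34b-5p (0.81), and the fall in treated day 14 cells against day 5 turned to 0.014 and 0.0062 without scaling. With a floor 4 times higher the control day 14 minus control day 9 difference was 0 for both, since all those arrays then lie at the floor. The interaction of treatment and day, 0.02 and -0.01 as reported, moved to either side of 0: for miR-34b-5p it was -0.081 with quantile normalization, -0.38 with normexp, -1.10 with the higher floor (limma adjusted p = 0.00028), -0.19 with the mean of all probes, and between -0.047 and 0.11 with 1 array left out; for miR-34c-5p it was 0.21 with the percentile over all mouse probes, 0.073 with median scaling, 0.28 without scaling, -1.13 with the higher floor (limma adjusted p = 6.74e-05), 0.016 with outlier spots, 0.083 in the deposited table, 0.014 with slide as a fixed block, and between -0.092 and 0.083 with 1 array left out. The settings named for each miRNA are those where the sign changed or the threshold was passed, beside the range with 1 array left out. They do not set the miRNAs apart. For miR-34b-5p the interaction was also positive with the percentile over all mouse probes (0.24), with median scaling (0.10) and without scaling (0.31). The interaction passed the threshold only with the higher floor. The percentile over all mouse probes moved the median treated minus control difference of all 306 miRNAs to -0.25 at day 9, against 0.25. The deviations of arrays that share a replicate number did not go together (mean r = -0.02 over 30 pairs), and with a replicate block the treatment effect was 1.88 and 1.90 at day 9 and 1.90 and 1.89 at day 14, with no call changed. The low signal in control day 14 cells, where the dimmer probes were not above background, limits every comparison with that group.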
